A study of Mus musculus with 6 samples.

Results

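The genes described are 10 members of the calcineurin and NFAT pathway: the inhibitors Rcan1, Rcan2 and Rcan3, the calcineurin catalytic subunits Ppp3ca and Ppp3cb, and the transcription factors Nfatc1, Nfatc2, Nfatc3, Nfatc4 and Nfat5. They were found by symbol in the deposited gene tables, and all 10 of 10 were found among 46603 genes and passed the filter on low counts. The study compared lower-incisor enamel organ cells of C57BL/6 mice whose genotype is given as a knockout of Stim1 and Stim2 (DKO, replicates 1, 3 and 4) with the same cells of mice labelled wild type, called WT here (replicates 1, 2 and 3). The series title sets the work in store-operated calcium entry and enamel formation, and ameloblasts, the enamel-forming cells, lie in the enamel organ's epithelium. The labels name no treatment, age, allele, promoter or Cre driver and do not say whether a library came from 1 animal or from pooled animals, so the p-values below cover the spread between these libraries, which may be technical.

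Calcineurin is a calcium- and calmodulin-activated phosphatase made of a catalytic and a regulatory subunit. In lymphocytes, store-operated calcium entry through STIM and ORAI proteins keeps it active, and it then strips phosphates from NFATc factors, which move into the nucleus. Nuclear NFATc induces RCAN1, a protein that binds and inhibits calcineurin, and this closes a feedback loop that has made RCAN1 transcript a common readout of the pathway. NFAT5 shares the DNA-binding domain but lacks the calcineurin-binding region and is known for the response to osmotic stress.

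Rcan1 (ENSMUSG00000022951, GRCm38 chromosome 16, 92391953 to 92466146, minus strand) has annotated starts 66091 bases apart. The known NFAT-responsive promoter is the intronic one, from which the short isoform begins, while the long isoform begins at the upstream start. The 250 bases before each start are shown because they set the feedback target beside the other promoter of the same gene. They are from RefSeq on GRCm38.p6, read 5′ to 3′ along the gene's strand, and capitals mark GGAAA, the NFAT core motif, or its reverse complement.
Rcan1 intronic start, chr16:92400079-92400328, minus strand: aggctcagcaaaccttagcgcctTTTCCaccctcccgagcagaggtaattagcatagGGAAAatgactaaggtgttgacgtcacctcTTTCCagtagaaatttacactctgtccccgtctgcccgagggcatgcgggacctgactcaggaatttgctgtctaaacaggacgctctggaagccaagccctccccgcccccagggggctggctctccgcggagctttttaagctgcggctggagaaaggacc
Rcan1 upstream start, chr16:92466170-92466419, minus strand: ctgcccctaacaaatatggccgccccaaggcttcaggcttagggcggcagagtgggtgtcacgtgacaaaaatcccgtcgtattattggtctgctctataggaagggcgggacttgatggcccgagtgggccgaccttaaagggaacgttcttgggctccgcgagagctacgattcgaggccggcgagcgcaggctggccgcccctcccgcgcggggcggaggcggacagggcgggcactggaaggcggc
The intronic window held 3 matches to GGAAA on either strand and 1 match to TGANTCA, the motif of AP-1, a known partner of NFAT on DNA, and the upstream window held 0 of each. Of 32851 RefSeq promoter windows of this length, 55.6% had at least 1 GGAAA, 6.39% had 3 or more, and 6.75% had a TGANTCA. Among the other members, windows were at hand for Rcan2, Rcan3, Nfatc2, Nfatc3, Nfatc4, Nfat5 and Ppp3cb, and 9 of all 13 member windows held a GGAAA. A window each of Nfatc2, Nfatc4 and Ppp3cb also held 3 matches to GGAAA, and a window of Rcan2 also held 1 TGANTCA. The counts and FPKM values are per gene and do not separate the isoforms, so how much each start contributed to the Rcan1 values was not tested.

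Total counts ran from 18609759 to 22829411 per library, and the 14 ameloblast and dental epithelium markers, led by Ambn and Amelx, summed to between 144000 and 212000 CPM (counts scaled to a common library size, with TMM factors) in DKO and between 106000 and 171000 CPM in WT. Stim1 stood at 125 ± 18.1 CPM in DKO and 422 ± 65.1 CPM in WT, and Stim2 at 122 ± 15.8 CPM in DKO and 261 ± 42.6 CPM in WT (SD, n = 3 each). Xist, the X-inactivation transcript, was above 100 CPM in DKO 1, WT 1 and WT 2 alone, so Xist-high and Xist-low libraries were spread unequally over the groups. Sums of leukocyte markers (254 to 409 CPM in DKO, 175 to 251 CPM in WT; 14 of 14 with a positive log2 fold change) and of endothelial markers (508 to 546 CPM in DKO, 360 to 484 CPM in WT; 11 of 12 positive) were higher in every DKO library. The sum of oral keratinocyte markers was lower in every DKO library (72.0 to 125 CPM, against 266 to 463 CPM in WT; 7 of 7 tested markers negative). Sums of osteoclast markers (184 to 226 CPM in DKO, 119 to 256 CPM in WT; 4 of 6 tested positive) and of T cell markers (3.16 to 5.88 CPM in DKO, 3.30 to 7.10 CPM in WT; 2 of 5 positive) overlapped, and Cd3d, Cd3e, Cd3g, Calcr, Oscar and Dcstamp were too low to test. The groups also overlapped for mesenchyme (11400 to 14400 CPM in DKO, 7380 to 12300 CPM in WT), although 13 of 14 markers were positive, with a median log2 fold change of 0.30. They overlapped for skeletal muscle (67.7 to 191 CPM in DKO, 85.6 to 399 CPM in WT), where 11 of 14 were negative at a median of -0.90, and for nerve (40.3 to 73.3 CPM in DKO, 60.9 to 76.3 CPM in WT; 4 of 7 negative). The part of these cells in the results below was not tested, and in such bulk libraries fewer cells of a type and less RNA per cell cannot be told apart.

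Rcan1 had the highest level per length of the 10 members in both groups. In deposited FPKM (fragments scaled by transcript length and by library size), the Rcan1 level averaged 933 in DKO and 481 in WT, which placed it at rank 147 of 46397 genes in WT. Rcan2 followed at 35.3 FPKM in DKO and 47.2 FPKM in WT, so the Rcan1 level was 24.0, 27.5 and 27.8 times that of Rcan2 in DKO 1, DKO 3 and DKO 4, against 9.48, 10.4 and 10.8 times in WT 1, WT 2 and WT 3. The catalytic subunits Ppp3ca and Ppp3cb stood at 15.9 and 17.9 FPKM in DKO and at 20.0 and 19.9 FPKM in WT.

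The NFAT factors were lower on the same scale of FPKM levels. Nfatc3 averaged 13.0 FPKM in DKO and 14.6 in WT, Nfat5 8.55 in DKO and 13.8 in WT, Nfatc4 9.67 in DKO and 7.75 in WT, Nfatc1 5.38 in DKO and 5.54 in WT, and Nfatc2 2.55 in DKO and 3.08 in WT. Rcan3 stood among them at 10.6 FPKM in DKO and 9.05 in WT. In the WT order, the ranges of the neighbours Ppp3ca and Ppp3cb, Nfatc3 and Nfat5, and Rcan3 and Nfatc4 overlapped, and those of the other neighbours did not. Nfat5 was the sixth of the 10 by mean FPKM in WT and the eighth in DKO.

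**Figure D1:**
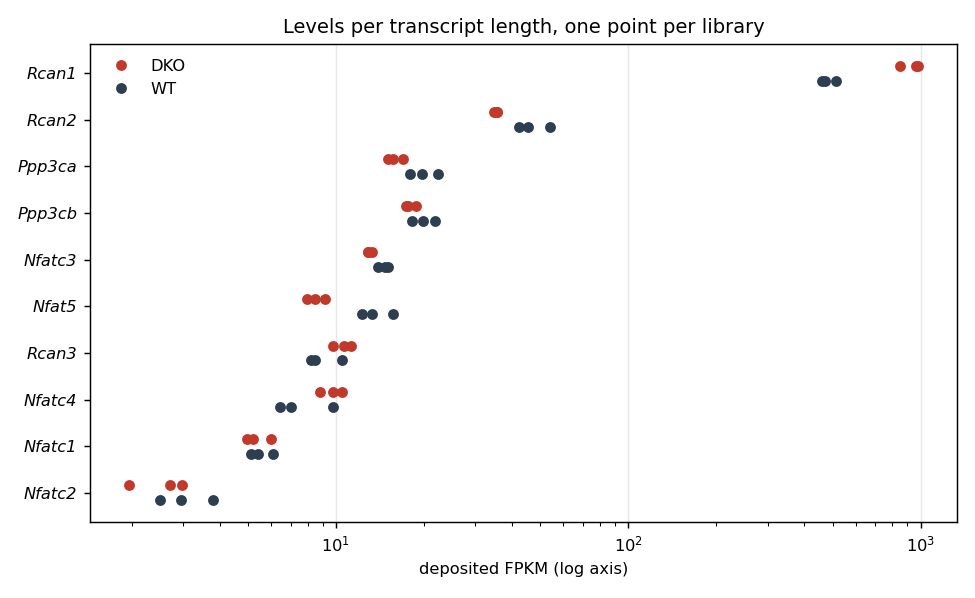
Deposited FPKM of the 10 genes in each library, on a log axis, with DKO points above WT points and genes ordered by their mean in WT. Rcan1 lies between 854 and 981 FPKM in DKO and between 459 and 514 FPKM in WT, far right of all other members.

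The question of the comparison between DKO and WT is which parts of the pathway differ when the calcium sensors are reduced. Across all 14721 genes tested, edgeR called 108 higher (0.734%) and 45 lower (0.306%) in DKO at an adjusted p below 0.05, and among the members it called 1 higher, Rcan1, and 0 lower. At an unadjusted p below 0.05 were 6 of the 10 members, as were 18.0% of all genes, and DESeq2 called 1 member higher (3.24% of all genes) and 2 lower, Nfat5 and Rcan2 (2.62%). The groups did not overlap in CPM for 6 of the 10 members, Rcan1 and Rcan3 above WT and Rcan2, Nfatc3, Nfat5 and Ppp3ca below it. The groups did not overlap for 23.3% of all genes, 11.4% above and 11.8% below. The members were chosen with earlier results of these data known, so these shares are not a test of the pathway. The median log2 fold change was -0.15 over the members, with 3 above 0 and 7 below, and -0.01 over all genes.

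**Figure D2:**
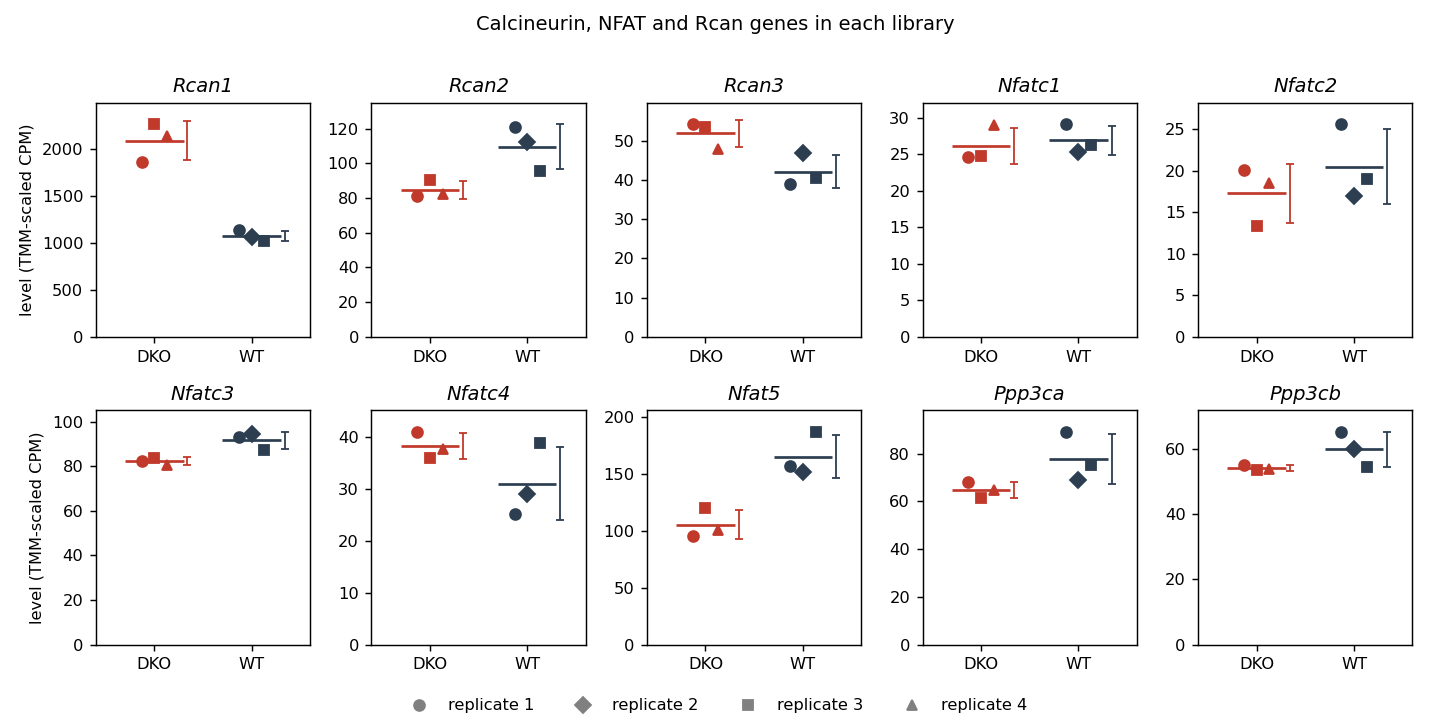
TMM-scaled CPM of each member in every library (points, shaped by replicate number), with the group mean (line) and SD (bar), DKO left of WT. All DKO points lie above all WT points for Rcan1 and Rcan3 and below them for Rcan2, Nfatc3, Nfat5 and Ppp3ca.

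Among the inhibitors, Rcan1 rose in DKO, and Rcan2 and Rcan3 did not pass the test. Rcan1 stood at 1858, 2259 and 2134 CPM in DKO 1, DKO 3 and DKO 4, against 1134, 1063 and 1020 CPM in WT 1, WT 2 and WT 3. The lowest DKO library exceeded the highest WT library by more than the whole WT range. The mean was 2084 ± 205 CPM in DKO and 1072 ± 57.6 CPM in WT (SD, n = 3 each), 1.94-fold higher in DKO. On the log2 scale the change was 0.96 (SE 0.12), and it passed the test across all genes (edgeR adjusted p = 0.0179). The exact two-sided permutation p was 0.1, the smallest that 3 against 3 libraries allow. Within the Xist-high libraries the log2 difference in Rcan1 was 0.76 (DKO 1 against WT 1 and WT 2), and within the others it was 1.11 (DKO 3 and DKO 4 against WT 3). With libraries left out in turn the log2 fold change ran from 0.90 to 1.04, but the call ended without DKO 3, DKO 4 or WT 3 (edgeR adjusted p = 0.0793, 0.113 and 0.0691) and when Xist status was put in the model (0.0728).

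Rcan2 (ENSMUSG00000039601, chromosome 17, 43801851 to 44039516, plus strand) encodes a related calcineurin inhibitor and lay on the other side of WT. It stood at 81.0, 90.5 and 82.3 CPM in DKO 1, DKO 3 and DKO 4, against 121, 112 and 95.5 CPM in WT 1, WT 2 and WT 3. The groups did not overlap, although DKO 3 and WT 3 came close. The log2 fold change was -0.37 (SE 0.10) and missed the threshold (edgeR adjusted p = 0.122), while it passed in the DESeq2 Wald test (adjusted p = 0.0421).

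Rcan3 (ENSMUSG00000059713, chromosome 4, 135412308 to 135433853, minus strand), the least studied of these inhibitors, stood at 54.2, 53.6 and 47.8 CPM in DKO 1, DKO 3 and DKO 4, against 38.9, 46.9 and 40.5 CPM in WT 1, WT 2 and WT 3. DKO 4 and WT 2 nearly met. The change of 0.30 on the log2 scale (SE 0.09) missed the threshold (edgeR adjusted p = 0.168), and in FPKM the groups overlapped. An exon of Rcan3 shares 44 bases with Mir700, which had 1 count over the 6 libraries.

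Neither catalytic subunit gene passed the test. Ppp3ca (ENSMUSG00000028161, chromosome 3, 136670124 to 136937727, plus strand) encodes the alpha isoform of calcineurin A. It stood at 68.3, 61.6 and 64.8 CPM in DKO 1, DKO 3 and DKO 4, against 89.3, 69.0 and 75.2 CPM in WT 1, WT 2 and WT 3. The groups stood apart only narrowly, with DKO 1 just below WT 2, and the log2 ratio was -0.26 (SE 0.10; adjusted p = 0.237 by edgeR). It was -0.15 without WT 1, the highest library.

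Ppp3cb (ENSMUSG00000021816, chromosome 14, 20499364 to 20546573, minus strand) encodes the beta isoform. It stood at 55.1, 53.7 and 53.8 CPM in DKO 1, DKO 3 and DKO 4, against 65.3, 60.0 and 54.4 CPM in WT 1, WT 2 and WT 3. WT 3 lay within the DKO range, and the log2 ratio was -0.14 (SE 0.08; adjusted p = 0.394 by edgeR), or -0.07 without WT 1. Summed with Ppp3cc, the third catalytic gene, the deposited FPKM came to 41.0, 36.7 and 38.0 in DKO 1, DKO 3 and DKO 4, against 50.2, 43.4 and 44.2 in WT 1, WT 2 and WT 3, a sum that was lower in every DKO library and was not tested.

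The calcium-regulated NFATc factors showed no called difference. Nfatc3 (ENSMUSG00000031902, chromosome 8, 106059603 to 106130537, plus strand), the most abundant of them in FPKM, stood at 82.5, 84.0 and 80.7 CPM in DKO 1, DKO 3 and DKO 4, against 93.4, 94.4 and 87.2 CPM in WT 1, WT 2 and WT 3. All DKO libraries were below WT by a small margin, at a log2 ratio of -0.15 (SE 0.06; adjusted p = 0.253 by edgeR). Nfatc3 exons share 219 bases with Esrp2 on the opposite strand, and because the library kit does not mark strand, reads there cannot be assigned to 1 of them.

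Nfatc4 (ENSMUSG00000023411, chromosome 14, 55824795 to 55833943, plus strand), known from heart muscle and neurons, stood at 41.0, 36.0 and 37.7 CPM in DKO 1, DKO 3 and DKO 4, against 25.1, 29.0 and 38.8 CPM in WT 1, WT 2 and WT 3. WT 3 lay within the DKO range, and WT 1 and WT 2 lay below it. The log2 ratio of Nfatc4 was 0.30 (SE 0.16; adjusted p = 0.350 by edgeR), 0.50 without WT 3 and 0.18 without WT 1. Between the strata by Xist the sign differed, with a log2 difference of 0.60 within the Xist-high libraries and -0.07 within the others.

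Nfatc1 (ENSMUSG00000033016, chromosome 18, 80606205 to 80713071, minus strand), the factor that drives osteoclast formation, stood at 24.7, 24.8 and 29.0 CPM in DKO 1, DKO 3 and DKO 4, against 29.1, 25.4 and 26.2 CPM in WT 1, WT 2 and WT 3. The ranges nearly coincided, and the log2 ratio of -0.04 (SE 0.10; adjusted p = 0.863 by edgeR) became 0.005 without DKO 1 and 0.02 without WT 1.

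Nfatc2 (ENSMUSG00000027544, chromosome 2, 168476410 to 168601657, minus strand), the main NFAT of resting T cells, was the lowest member, and its log2 fold change had the largest SE among the members. It stood at 20.1, 13.3 and 18.6 CPM in DKO 1, DKO 3 and DKO 4, against 25.6, 17.0 and 19.0 CPM in WT 1, WT 2 and WT 3. The groups overlapped, and the log2 ratio of -0.25 (SE 0.20; adjusted p = 0.565 by edgeR) was -0.05 without WT 1 and -0.09 without DKO 3.

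Nfat5, whose protein lacks the calcineurin-binding region, had the largest difference after Rcan1. Nfat5 (ENSMUSG00000003847, chromosome 8, 107293470 to 107379517, plus strand) stood at 95.7, 120 and 101 CPM in DKO 1, DKO 3 and DKO 4, against 157, 152 and 187 CPM in WT 1, WT 2 and WT 3. The highest DKO library was well below the lowest WT library. The DKO mean of 105 ± 12.9 CPM was 63.8% of the WT mean of 165 ± 19.1 CPM (SD, n = 3 each). The log2 fold change was -0.65 (SE 0.12), and the edgeR adjusted p of 0.0522 lay just above the threshold, at rank 175 of 14721 genes by p. The log2 difference was -0.69 within the Xist-high libraries and -0.76 within the others, and with Xist status in the model the adjusted p was 0.0390. Over 18 alternatives the adjusted p of Nfat5 ran from 0.000119 (DESeq2) to 0.201 (without DKO 4), and 6 of the 18 were below 0.05.

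**Figure D3:**
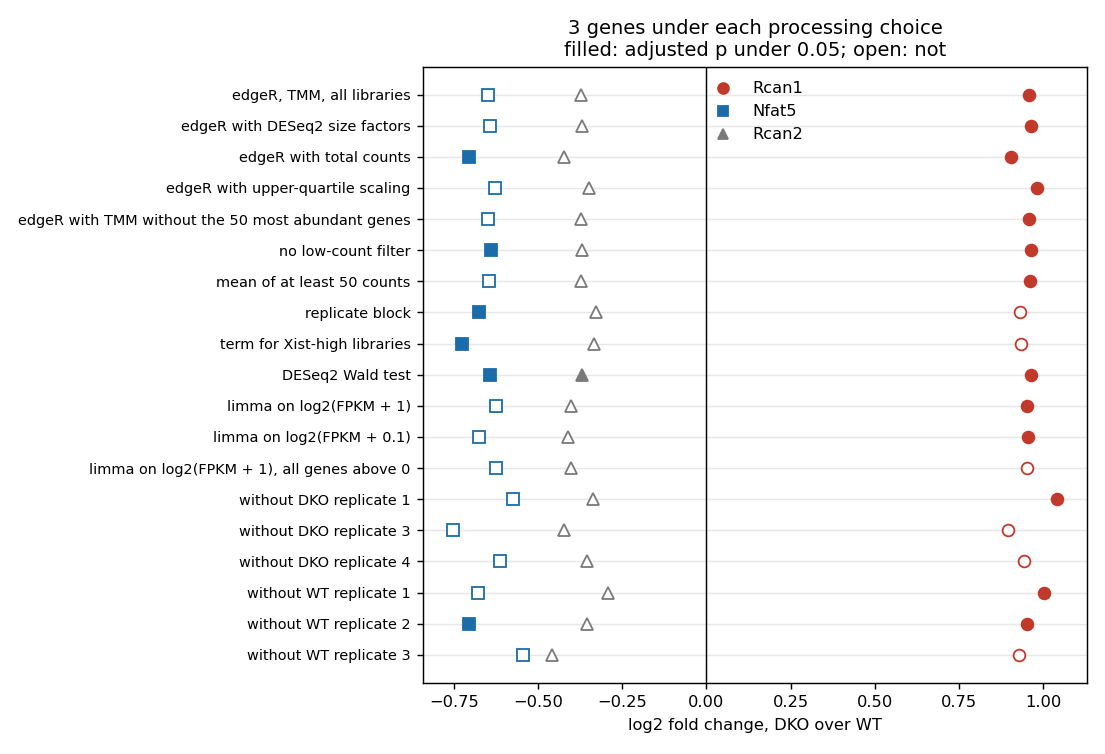
Log2 fold change of Rcan1, Nfat5 and Rcan2, DKO over WT, under the edgeR fit with TMM scaling and 18 alternatives, filled where the adjusted p was below 0.05. Rcan1 stays between 0.90 and 1.04 and is filled in 12 of the 18 alternatives, Nfat5 stays between -0.75 and -0.54 and is filled in 6, and Rcan2 is filled with DESeq2 alone.

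These calls were read against the share of all genes called in the same setting. Nfat5 was called lower with total counts (0.435% of all genes lower), no low-count filter (0.958%), a replicate block (1.33%), Xist status in the model (0.129%), DESeq2 and without WT 2 (1.4%). The replicate block takes the group difference from DKO 1, DKO 3, WT 1 and WT 3 alone. The numbers of DKO 4 and WT 2 occur in 1 group only, so these libraries do not inform it. Rcan1 was called higher with DESeq2 size factors (0.734% of all genes higher), DESeq2 itself, TMM computed without the 50 genes of highest level (0.734%), upper-quartile scaling (0.876%) and total counts (0.693%). It was also called with a stricter filter of 50 counts on the mean (0.65%), with every counted gene kept (1.23%), with limma on FPKM at either pseudocount (0.457% and 0.449%), and without DKO 1 (0.564%), WT 1 (0.387%) or WT 2 (0.824%). It was not called with Xist status in the model (0.353%), a replicate block (0.897%), limma on all genes above 0 (0.0308%), or without DKO 3 (0.126%), DKO 4 (0.113%) or WT 3 (0.148%). The 3 left-out libraries that ended the call of Rcan1 were also those without which the fewest genes were called higher.

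The make-up of each family was compared as the share of a member in its family's summed FPKM within a library. Rcan1 held 94.8%, 95.5% and 95.6% of the Rcan total in DKO 1, DKO 3 and DKO 4, against 89.2%, 89.4% and 90.0% in WT 1, WT 2 and WT 3. The share of Rcan2 was 3.62% ± 0.282 in DKO and 8.77% ± 0.575 in WT, and that of Rcan3 was 1.09% ± 0.148 in DKO and 1.69% ± 0.280 in WT (SD, n = 3 each). The shares did not overlap between groups for any of these 3 genes, but they are parts of the same sum, most of it Rcan1, and are not separate results. A share must fall where another gene of the family gains, so the lower share of Rcan3 stands beside a mean Rcan3 level that was not lower.

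Within the NFATc family the order of shares was the same in both groups, with Nfatc3 first, then Nfatc4, Nfatc1 and Nfatc2. Nfatc3 held 42.6% ± 2.11 in DKO and 47.2% ± 3.38 in WT, and Nfatc4 held 31.5% ± 1.07 in DKO and 25.0% ± 5.06 in WT (SD, n = 3 each). The Nfatc4 share did not overlap, but WT 3 at 30.5% came close to DKO 3 at 30.8%. Nfatc1 took 17.6% ± 1.47 in DKO and 17.9% ± 1.31 in WT, and Nfatc2 took 8.27% ± 1.26 in DKO and 9.93% ± 1.87 in WT. The summed NFATc FPKM overlapped, at 31.9, 28.6 and 31.4 in DKO 1, DKO 3 and DKO 4 and 31.4, 29.3 and 32.1 in WT 1, WT 2 and WT 3.

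Among the catalytic subunits, Ppp3cb held 46.4% ± 0.788 in DKO and 43.5% ± 2.32 in WT, Ppp3ca 41.2% ± 0.230 in DKO and 43.4% ± 1.85 in WT, and Ppp3cc 12.4% ± 0.604 in DKO and 13.1% ± 1.04 in WT (SD, n = 3 each). These shares overlapped between the groups. Of the 10 shares compared in the 3 families, 4 reached the smallest exact two-sided permutation p of 0.1, which is 0.25 after Benjamini-Hochberg adjustment over the 10, so none could pass at this number of libraries. Those 4 are the Rcan shares, which move together, and that of Nfatc4.

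**Figure D4:**
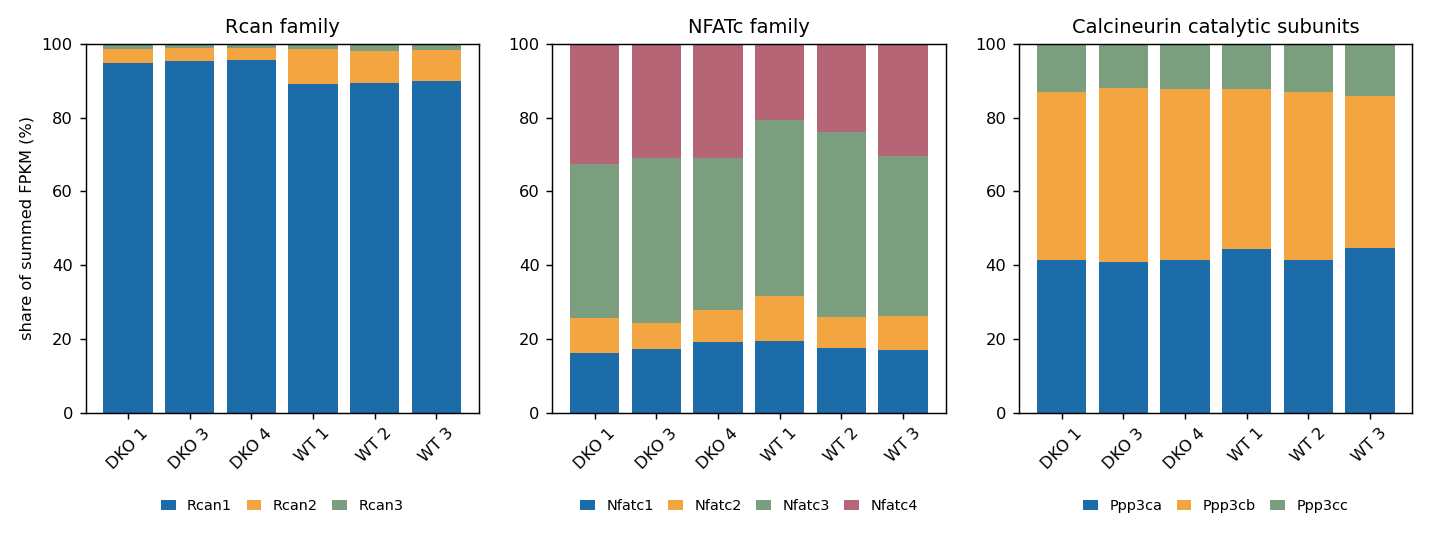
Share of each gene in the summed FPKM of its family, one stacked bar per library with DKO left of WT. Rcan1 fills 94.8% to 95.6% of the Rcan bar in DKO and 89.2% to 90.0% in WT, while the catalytic-subunit shares overlap between the groups.

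Around the 10 members, 5 lists of pathway genes held 1 called gene, Egr3, beside 1.04% of all genes called in either direction. Of the 18 tested calcineurin partners 0 were called higher and 0 lower, with 7 log2 fold changes above 0, 11 below and a median of -0.01. Ppp3r1, the regulatory subunit, stood at 75.0 ± 3.33 CPM in DKO and 75.2 ± 4.14 CPM in WT (SD, n = 3 each), a log2 fold change of -0.01 (SE 0.07). Ppp3cc stood at 9.48 ± 0.701 CPM in DKO and 11.9 ± 0.637 CPM in WT (SD, n = 3 each), with no overlap (log2 fold change -0.32, edgeR adjusted p = 0.210). The testis form of the regulatory subunit, Ppp3r2, had 0 counts in every library. Fkbp1a, the binding protein of the calcineurin inhibitor FK506, stood at 159 ± 6.93 CPM in DKO and 130 ± 1.55 CPM in WT (log2 fold change 0.29, edgeR adjusted p = 0.0912), and passed with DESeq2 (adjusted p = 0.00693). Cabin1, a protein inhibitor of calcineurin, stood at 89.3 ± 5.84 CPM in DKO and 106 ± 4.98 CPM in WT (-0.24, adjusted p = 0.161).

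Of the 17 tested kinases, scaffolds and transport factors of NFAT 0 were called higher and 0 lower, with 12 log2 fold changes below 0 and a median of -0.12. The lowest p were those of the nuclear export receptor Xpo1 (73.6 ± 3.33 CPM in DKO, 84.1 ± 2.97 CPM in WT; SD, n = 3 each), the kinase gene Dyrk3 (2.23 CPM in DKO, 3.73 CPM in WT) and the scaffold gene Homer2 (27.5 CPM in DKO, 33.6 CPM in WT), with edgeR adjusted p of 0.192, 0.209 and 0.369. The log2 fold change of Homer2, -0.29, was -0.13 without WT 1 and -0.18 without DKO 4. Of 12 tested other calcineurin substrates 0 were called higher and 0 lower, with a median of -0.05. The transcription factor genes Elk1 (24.1 CPM in DKO, 20.0 CPM in WT) and Foxo1 (299 CPM in DKO, 400 CPM in WT) and the CREB coactivator gene Crtc3 (32.0 CPM in DKO, 36.9 CPM in WT) had edgeR adjusted p of 0.196, 0.235 and 0.276. Foxo1 was at 511 CPM in WT 1, against 343 and 346 CPM in WT 2 and WT 3, and its log2 fold change of -0.42 was -0.20 without WT 1.

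Of 23 genes known as NFATc targets in lymphocytes, muscle or osteoclasts, 12 were high enough to test. Of these, 1 was called higher and 0 lower, beside 0.734% and 0.306% of all genes, and the median log2 fold change was 0.34. Ptgs2 was high enough to test only through its DKO libraries, with 27, 11 and 20 counts in DKO 1, DKO 3 and DKO 4. It had 0, 1 and 10 counts in WT 1, WT 2 and WT 3. Irf4, at 11.83 counts a library against 11.5 for Ptgs2, was not tested, and its mean CPM in DKO was 63.9% of WT. The low-count filter thus bears on this median. The tested genes Acp5, Ctsk, Atp6v0d2 and Itgb3 are also among the osteoclast markers above, so the lists are not separate readings. Egr3, an immediate early transcription factor, stood at 3.96, 3.36 and 4.23 CPM in DKO 1, DKO 3 and DKO 4, against 1.70, 1.12 and 1.57 CPM in WT 1, WT 2 and WT 3. All DKO libraries were above all WT libraries, at a log2 ratio of 1.39 (SE 0.24; adjusted p = 0.0455 by edgeR). The call of Egr3 ended whichever library was left out (adjusted p from 0.0575 without WT 2 to 0.170 without DKO 4) and when Xist status was put in the model (0.0983). Egr3 was called in 5 of the 18 alternatives, and its log2 fold change was above 0 in all 18.

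The nuclear receptor gene Nr4a3 pointed the other way, at 2.81, 3.87 and 4.12 CPM in DKO 1, DKO 3 and DKO 4, against 15.1, 8.29 and 7.85 CPM in WT 1, WT 2 and WT 3. The groups did not overlap, with WT 1 highest, and the log2 fold change of -1.54 (SE 0.29) missed the threshold (edgeR adjusted p = 0.0609). Nr4a3 passed without WT 2 (0.0476), with no low-count filter (0.00631) and with DESeq2 (8.54e-05), which are 3 of the 18 alternatives. Its log2 fold change was below 0 in all 18. The cyclooxygenase gene Ptgs2 was at 1.35, 0.561 and 1.07 CPM in DKO 1, DKO 3 and DKO 4, against 0, 0.0485 and 0.436 CPM in WT 1, WT 2 and WT 3, and did not pass (edgeR adjusted p = 0.194). Its fitted log2 fold change of 2.57 rests on 0, 1 and 10 counts in WT, and was 5.12 without WT 3 and 1.98 without WT 1. The lymphokine genes Il2, Tnf and Ifng of this list were too low to test, and the untested genes of the list reached at most 1.02 CPM in any library.

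Of 12 genes known as NFAT5 targets in osmotic stress, 7 were tested and 0 were called higher and 0 lower, with 6 of the 7 below 0 and a median log2 fold change of -0.19. The aldose reductase gene Akr1b3, which makes the osmolyte sorbitol, stood at 46.2, 37.0 and 40.1 CPM in DKO 1, DKO 3 and DKO 4, against 70.1, 36.2 and 65.0 CPM in WT 1, WT 2 and WT 3. WT 2 lay below the DKO libraries and the other WT libraries above them, and the log2 ratio was -0.48 (SE 0.23; adjusted p = 0.325 by edgeR). It was -0.72 without WT 2, where it passed the test (adjusted p = 0.0247), and -0.30 without WT 1. Slc38a2, an amino acid transporter, stood at 178 ± 8.89 CPM in DKO and 202 ± 11.9 CPM in WT (SD, n = 3 each; adjusted p = 0.278). The heat shock gene Hspa1a stood at 16.2 CPM in DKO and 18.3 CPM in WT (edgeR adjusted p = 0.347), and it has a near-identical copy, Hspa1b, so the split of reads between them is uncertain.

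**Figure D5:**
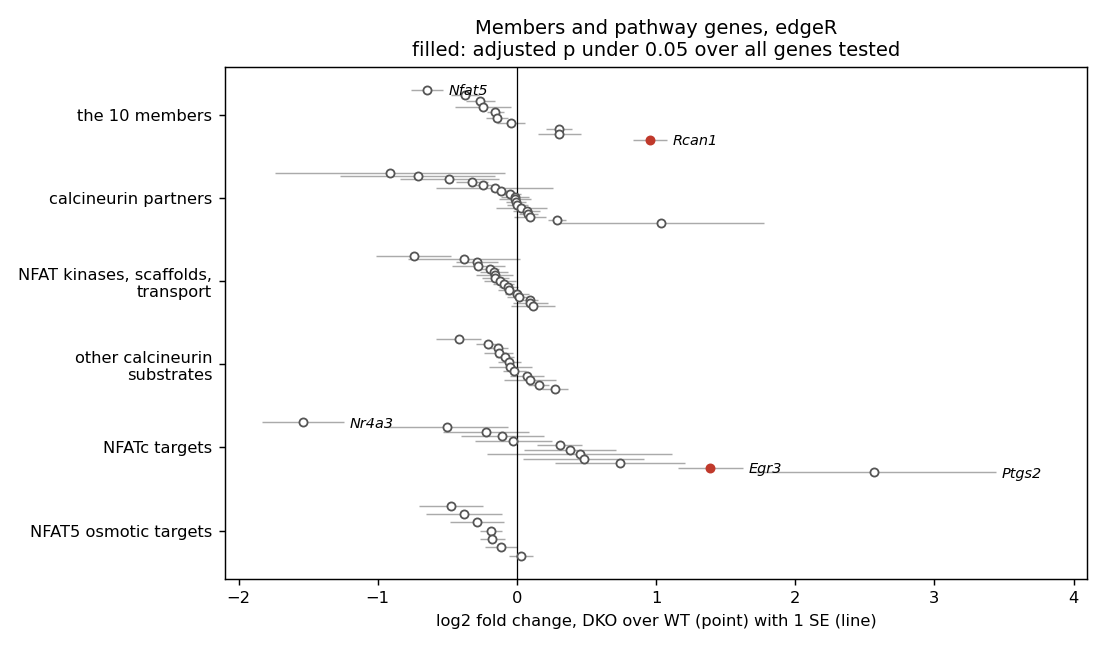
Log2 fold change, DKO over WT (point), with 1 SE (line), for the members and for each tested gene of the 5 pathway lists, filled where edgeR's adjusted p was below 0.05. Rcan1 at 0.96 and Egr3 at 1.39 are the filled points, and Nfat5 at -0.65, Nr4a3 at -1.54 and Ptgs2 at 2.57, which rests on few WT counts, are open.

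The genes with a pattern most like that of Rcan1 were ranked by Pearson's r of log2 CPM over the 6 libraries among 11813 protein-coding genes with a mean of at least 50 counts. They were Actr1b (r = 0.996), a dynactin subunit gene, Olfm2 (0.995), a secreted olfactomedin gene, Abca13 (0.994), a transporter gene, Asns (0.994), the asparagine synthetase gene, and Cnn1 (0.993), a calponin gene. The points share the 2 genotypes and their libraries, so this is a description of these 6 libraries. Olfm2 stood at 27.9, 35.8 and 38.2 CPM in DKO 1, DKO 3 and DKO 4, against 9.76, 9.45 and 7.80 CPM in WT 1, WT 2 and WT 3. Asns differed far less in size, at 34.0 ± 0.723 CPM in DKO and 30.2 ± 0.0825 CPM in WT (SD, n = 3 each), so the likeness is of pattern and not of amount.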

How the data were processed

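RNA of 3 DKO and 3 WT libraries was read with an unstranded TruSeq v2 kit as paired ends, per the labels' protocols. The deposited counts are whole numbers per gene, and the FPKM tables the authors deposited have the columns of Cufflinks output, per the file headers. Trimmomatic 0.32, Cufflinks 2.2, HTSeq and GRCm38 are named, per the submitters' processing notes, and the sources used here do not give the aligner or annotation. Of 46603 genes, 46406 took their symbol from the FPKM tables and 192 from a reference table. Positions are from the deposited tables, 1-based, and strand and overlaps from GENCODE vM21. The FPKM tests left out 9 genes with a failed estimate and summed repeated gene IDs.

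DKO was compared with WT by edgeR 4.0.16 (quasi-likelihood, TMM, filterByExpr, Benjamini-Hochberg over all genes tested) in R 4.3.3. The SE is the log2 fold change over the square root of F. Shares and single genes had exact permutation tests. Alternatives were other scalings and filters, a replicate block, Xist status (above 100 CPM or not) as a covariate, DESeq2 1.42.0, limma-trend 3.58.1 on log2 FPKM with a pseudocount of 1 or 0.1, and each library left out. The tests were first run on simulated data. The members and lists were chosen with earlier results of these data known. Named are all members, Stim1, Stim2, the called genes or up to 3 genes of lowest p of each list, Ppp3cc, Ppp3r1, Ppp3r2, and the 5 genes most like Rcan1. No 2 libraries of a group agreed within sampling noise (chi-square per degree of freedom at least 13.4). That measure is summed over genes and weighted to those of high counts, and counting error was not compared with the spread gene by gene. Without molecular identifiers a fragment need not be a separate molecule.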

Additional observations from a re-analysis of the deposited data

How the results depend on the processing

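The direction held for every member under all 18 alternatives except Nfatc1, whose log2 fold change ran from -0.121 to 0.023 as libraries were left out (0.005 without DKO 1). Ppp3r1 also lay on either side of 0: 0.018 with upper-quartile scaling, 0.000 with no low-count filter, 0.026 with the Xist term and -0.036 to 0.042 with libraries left out. The Nfatc1 share was 0.122 points higher in DKO in CPM in place of FPKM and ran from -1.14 to 0.392 points with libraries left out. The causes were not tested.

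Members called higher and lower were 1 and 1 with total counts or no filter, 0 and 1 with the Xist term, 1 and 2 with DESeq2, 0 and 0 with limma on all genes above 0, and from 0 to 1 in each direction with libraries left out. Over all genes the calls higher and lower were 312 and 242 with no filter, 79 and 29 at a mean of at least 50 counts, 52 and 19 with the Xist term, 476 and 386 with DESeq2, 61 and 16 with limma on log2(FPKM + 1), 60 and 17 on log2(FPKM + 0.1), 8 and 3 on all genes above 0, and from 17 (without DKO 4) to 124 higher and 4 to 211 lower (both highest without WT 2) with libraries left out. Of the NFATc targets 0 were called higher with the Xist term or without any 1 library. Without WT 2, 1 NFATc target and 1 NFAT5 target were called lower, and otherwise 0 when a library was left out. In the replicate block, 0 members were higher and 1 lower (Nfat5, adjusted p = 0.043; Rcan1 0.105), Akr1b3 passed (0.0337), and 132 genes were higher and 196 lower. Numbers 1 and 3 are shared by both groups, the labels do not say that they pair libraries, and deviations of same-numbered libraries correlated at 0.188 and 0.006. DKO 4 and WT 2 have numbers found in 1 group only, so the block's group difference does not draw on them.

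Each group has 3 libraries. Members averaged from 399.5 to 32220 counts a library, while Egr3 averaged 53.8 and Ptgs2 11.5. Low counts left 11 of 23 NFATc targets and 5 of 12 NFAT5 targets untested. Among the untested NFAT5 targets, S100a4 averaged 2.667 counts a library but 12.23 FPKM in DKO and 14.85 FPKM in WT, so its deposited counts and FPKM disagree.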
